A study of Mus musculus with 12 samples.

Results

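The CXC chemokines are small secreted proteins, named for the residue that separates their first paired cysteines, and 9 of their genes were examined here in the brain after intracerebral hemorrhage (ICH): Cxcl1, Cxcl2, Cxcl5, Cxcl9, Cxcl10, Cxcl12, Cxcl13, Cxcl14 and Cxcl16. They were taken by gene symbol from a table of 54833 genes, each symbol matched 1 row, and 9 of 9 passed the filter on low counts that left 21495 genes for testing. All mice were wild-type (WT) males, and every sample was tissue around the hematoma, or its sham counterpart, from the ipsilateral caudate putamen, taken 24 h after surgery. There were 12 samples, 3 each of sham and ICH at either age (young sham, young ICH; aged sham, aged ICH), and each pooled the tissue of 2 or 3 mice. The young age was 8 to 10 weeks and the old age 20 to 22 months. ICH was induced by injecting type IV collagenase into the basal ganglia, and sham mice received saline. Collagenase opens the vessel wall, so the model is not a spontaneous bleed, and the mice were perfused before the tissue was taken.

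CXC chemokines form gradients that guide white blood cells by binding G protein-coupled CXC receptors. Members with a glutamate-leucine-arginine (ELR) motif before the cysteines, among them Cxcl1, Cxcl2 and Cxcl5, act through Cxcr2 and recruit neutrophils, and their transcription is classically switched on by NF-kB downstream of interleukin 1 and tumor necrosis factor. Cxcl9 and Cxcl10 are induced by interferons and attract Cxcr3-bearing T and NK cells, Cxcl12 acts through Cxcr4 and Ackr3, Cxcl13 through Cxcr5 on B cells, and Cxcl16 is a transmembrane ligand of Cxcr6 that proteases release.

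In GENCODE's annotation of the GRCm38 build, 6 of the 9 genes lay on chromosome 5. The ELR genes Cxcl5 (90759360 to 90761624), Cxcl1 (90891241 to 90893115) and Cxcl2 (90903871 to 90905938) stood in 1 cluster on the plus strand, Cxcl9 (92321347 to 92328079) and Cxcl10 (92346638 to 92348889) neighboured each other on the minus strand, and Cxcl13 (95956951 to 95961068) lay further along on the plus strand. Cxcl12 was on chromosome 6 (117168535 to 117181367, plus strand), Cxcl16 on chromosome 11 (70453983 to 70459984, minus strand) and Cxcl14 on chromosome 13 (56288643 to 56296551, minus strand), and all 9 were annotated as protein-coding. Cxcl10 shared 133 of its 2252 exonic bases with Art3, and Cxcl16 shared 552 of its 3021 with Zmynd15, each on the other strand, so reads from these stretches cannot be assigned without strand. Art3 had a log2FC of -0.41 ± 0.16 (SE, adjusted p = 0.127) in aged ICH vs. aged sham, opposite in sign to that of Cxcl10, and Zmynd15 had a log2FC of 0.71 ± 0.25 (adjusted p = 0.0628) in young ICH vs. young sham, close to that of Cxcl16 below.

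The promoters of Cxcl1, Cxcl2 and Cxcl3, an ELR gene outside the 9, are shown because they share a short run, and that of Cxcl10 because it holds different matches. Each line holds the 250 bases before the RefSeq transcript start, 5′ to 3′ on the gene's own strand, and the capitals mark matches, on either strand, to the NF-kB consensus or, in Cxcl10, also to the core of the interferon-stimulated response element (ISRE, here 2 copies of GAAA set 2 bases apart). The windows are chr5:90890995-90891244 for Cxcl1, chr5:90903649-90903898 for Cxcl2 and chr5:90785851-90786100 for Cxcl3, all on the plus strand, and chr5:92348890-92349139 on the minus strand for Cxcl10 (RefSeq, GRCm38.p6). RefSeq promoters were matched for 7 of the 9 members, without Cxcl5 and Cxcl16.
Cxcl1: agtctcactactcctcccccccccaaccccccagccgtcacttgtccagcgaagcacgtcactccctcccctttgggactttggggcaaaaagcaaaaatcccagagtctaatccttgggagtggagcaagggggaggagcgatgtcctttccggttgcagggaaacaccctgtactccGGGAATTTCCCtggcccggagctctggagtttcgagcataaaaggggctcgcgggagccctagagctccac
Cxcl2: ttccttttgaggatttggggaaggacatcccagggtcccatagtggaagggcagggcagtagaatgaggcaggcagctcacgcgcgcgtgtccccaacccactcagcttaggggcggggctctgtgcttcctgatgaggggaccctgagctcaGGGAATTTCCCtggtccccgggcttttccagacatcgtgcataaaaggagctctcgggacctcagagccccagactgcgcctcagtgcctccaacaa
Cxcl3: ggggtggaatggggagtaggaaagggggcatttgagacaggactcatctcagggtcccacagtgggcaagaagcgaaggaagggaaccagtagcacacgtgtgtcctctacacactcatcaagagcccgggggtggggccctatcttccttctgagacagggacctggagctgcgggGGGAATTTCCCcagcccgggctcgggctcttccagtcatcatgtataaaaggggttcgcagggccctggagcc
Cxcl10: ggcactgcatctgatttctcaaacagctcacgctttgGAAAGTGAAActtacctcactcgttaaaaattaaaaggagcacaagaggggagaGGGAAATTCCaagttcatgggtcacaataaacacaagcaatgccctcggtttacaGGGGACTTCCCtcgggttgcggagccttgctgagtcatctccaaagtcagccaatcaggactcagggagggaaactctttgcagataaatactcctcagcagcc

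Cxcl1, Cxcl2 and Cxcl3 each carried the identical 11-base run GGGAATTTCCC, which holds 2 overlapping NF-kB matches, at 71 to 61, 97 to 87 and 73 to 63 bases before the start. That run, on either strand, was found in 14 of 32544 distinct mouse promoters (0.043%), whereas any NF-kB match was found in 8.49% of them. Cxcl10 held an NF-kB match 159 to 150 bases and a run of 2 overlapping matches 104 to 94 bases before its start, and an ISRE core, found in 3.45% of promoters, 213 to 204 bases before it. Cxcl14 held an ISRE core 172 to 163 bases before its start and a match to the GAS element (TTCNNNGAA, found in 8.33% of promoters) 191 to 183 bases before it. Cxcl9, Cxcl12 and Cxcl13 had no match in the windows searched, from 250 bases before to 50 after the start. These are matches of letters, and binding was not measured here.

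**Figure D1:**
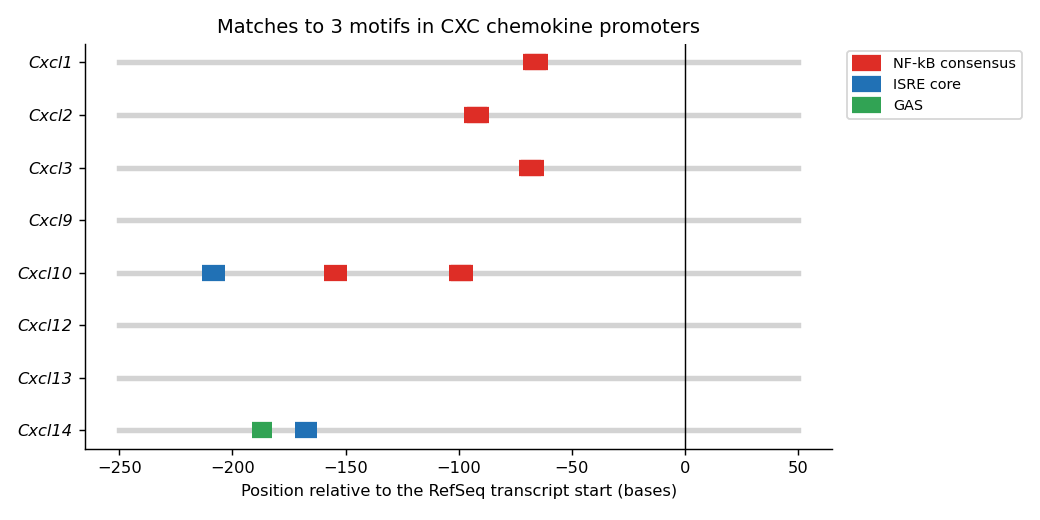
Position of matches to 3 motifs (boxes) along 8 CXC chemokine promoters (grey lines), in bases from the RefSeq transcript start (black line). Cxcl1, Cxcl2 and Cxcl3 each have 1 box for the NF-kB run between 97 and 61 bases before the start, Cxcl10 has 3 boxes, and Cxcl9, Cxcl12 and Cxcl13 have none.

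The libraries held 28410896 to 37785160 counts each. Striatal neuron markers were present in every sample (8 of 8 tested, summed level 248.8 to 2154 CPM, counts scaled to library size). The sample labels say only brain, and the caudate putamen is named in the study's methods. Choroid plexus markers (6 of 6 tested) summed to 9.62 to 487 CPM in 9 samples and to 1550, 1965 and 4054 CPM in aged ICH 1, aged ICH 2 and young ICH 3. Whether the dissections differed was not tested. In bulk tissue, fewer cells of a type and less RNA per cell cannot be told apart.

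Per kilobase of transcript, Cxcl14, a homeostatic chemokine, was the most abundant CXC chemokine in every group, at a mean of 30.1 ± 3.39 (SD, n = 3) FPKM (fragments scaled to transcript length and library size) in young sham, 36.2 ± 7.18 in young ICH, 32.8 ± 4.72 in aged sham and 33.9 ± 6.39 in aged ICH. In sham tissue Cxcl12 came next (5.91 ± 0.80 FPKM in young and 8.74 ± 1.53 in aged), then Cxcl10 (3.23 ± 1.93 and 3.31 ± 2.23). After ICH, Cxcl10 stood in second place, at 8.47 ± 3.04 FPKM in young and 16.01 ± 6.82 in aged mice. In young ICH its range overlapped that of Cxcl12, the next in order, and in aged ICH it did not overlap that of Cxcl1. By FPKM, then, Cxcl14 lay apart from the second gene in all 4 groups, while most lower neighbours overlapped. This order depends on the transcript lengths used. Not scaled to length, mean Cxcl12 was 72.38 CPM in aged sham against 60.75 for Cxcl14, while Cxcl14 had the higher mean CPM in the other groups. Cxcl2 was last in young sham (0.097 ± 0.041 FPKM), overlapping Cxcl9, and Cxcl9 was last in the other groups (0.056 to 0.146 FPKM).

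The ELR genes made up a larger part of the family's transcripts after ICH. Cxcl1, Cxcl2 and Cxcl5 together took 1.31% to 4.19% of the summed FPKM of the 9 genes in the young sham samples and 8.87% to 20.1% in the young ICH samples. In aged mice the share was 2.61%, 0.930% and 9.57% in aged sham 1, 2 and 3, and 16.5% to 20.5% in aged ICH. ICH and sham samples did not overlap at either age, and aged sham 3 lay above the young ICH sample with the lowest share. Cxcl14 took 55.7% to 74.4% in the 6 sham samples and 42.3% to 70.9% in the 6 ICH samples, which overlapped.

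**Figure D2:**
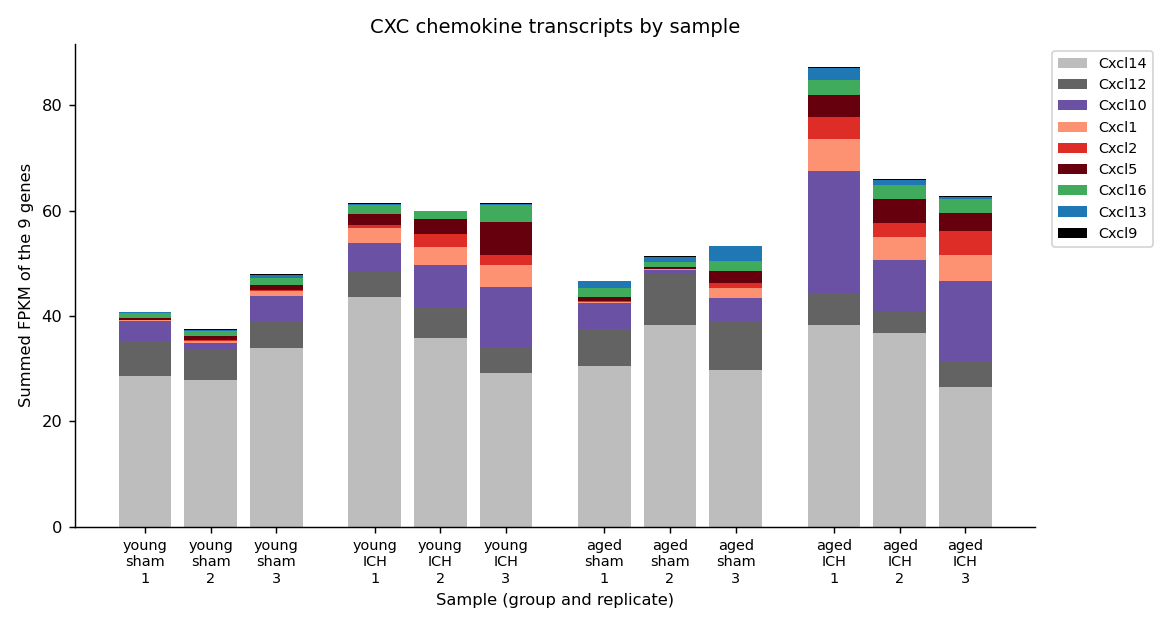
Summed FPKM of the 9 CXC chemokine genes (y axis) in each of the 12 samples (x axis, group and replicate), each bar split by gene. The sums run from 37.5 to 53.2 FPKM in sham samples and from 60.0 to 87.3 FPKM in ICH samples, with Cxcl14 the largest piece of every bar.

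In young mice, ICH raised the ELR genes Cxcl1, Cxcl2 and Cxcl5 and no other member passed the test. Of the 9 members, 3 were higher and 0 lower in young ICH than in young sham at an adjusted p under 0.05, where 9.89% of all genes tested were higher, 9.23% were lower and 19.1% changed in either direction. The median log2FC of the members was 0.80, against 0.02 over all genes tested. In aged mice 3 members were higher (Cxcl1, Cxcl2 and Cxcl10) and 1 was lower (Cxcl12) in aged ICH than in aged sham, where 7.00% of all genes were higher, 6.15% were lower and 13.2% changed in either direction. The median log2FC of the members there was 1.28, against 0.00 over all genes. Cxcl2, counted at both ages, passed the filter on low counts by its ICH libraries, so these numbers are partly set by the filter. By the criterion the study used (fold change above 1.5 or under 0.67 with an unadjusted p under 0.05), 4 members were higher in young mice (8.66% of all genes), with Cxcl16 added, and 5 were higher and 1 lower in aged mice (7.24% and 2.82% of all genes), with Cxcl5 and Cxcl16 added. With 3 samples a group these counts were fragile: the number of members called higher ran from 0 to 4 at either age as each sample was left out in turn, and it was 1 in aged mice when only the 6 samples compared were fitted.

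Cxcl1, the mouse neutrophil attractant also called KC, had 0.332, 0.793 and 1.81 CPM in young sham 1, 2 and 3 and 5.22, 6.39 and 7.37 CPM in young ICH. In aged mice it had 0.530, 0.270 and 3.68 CPM in aged sham 1, 2 and 3 and 11.01, 8.02 and 8.80 CPM in aged ICH. Every ICH sample lay above every sham sample, and aged sham 3 was the highest sham. Cxcl1 was higher in young ICH than in young sham by a log2FC of 2.71 ± 0.74 (SE, adjusted p = 0.0263), and in aged ICH than in aged sham by 2.61 ± 0.71 (adjusted p = 0.0339). The call in young mice was lost without young ICH 3, young sham 1 or young sham 2 (log2FC 2.28 to 3.50 over all samples left out, adjusted p up to 0.0989), and that in aged mice without aged ICH 1, aged ICH 3, aged sham 1 or aged sham 2 (2.13 to 4.52, the highest without aged sham 3, adjusted p up to 0.116).

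Cxcl2, also called MIP-2, is a relative of Cxcl1 with the same receptor and had the largest log2FC of the members in both ICH comparisons. It had 0.111, 0.286 and 0.231 CPM in young sham and 1.07, 5.16 and 3.91 CPM in young ICH, a log2FC of 4.01 ± 0.95 (adjusted p = 0.0139). It had 0.265, 0.0337 and 1.83 CPM in aged sham and 8.503, 5.15 and 9.18 CPM in aged ICH, a log2FC of 3.38 ± 0.80 (adjusted p = 0.0201). The groups did not overlap at either age, although aged sham 3 lay above young ICH 1. The young call was lost only without young sham 2 (adjusted p = 0.0512), and the aged call without aged ICH 1, aged ICH 3 or aged sham 1 (adjusted p up to 0.0785). The aged log2FC ran from 2.84 to 5.63 as each sample was left out, the highest without aged sham 3. Sham counts of Cxcl2 were 1 to 9 in 5 of 6 libraries, so the size of its fold is loosely held. Cxcl2 passed the filter on low counts by its ICH libraries, so its test is not independent of the filter.

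Cxcl5, the ELR member otherwise known as LIX, had 0.608, 1.36 and 1.88 CPM in young sham and 3.83, 5.23 and 11.4 CPM in young ICH, a log2FC of 2.42 ± 0.62 (adjusted p = 0.0195). Without young ICH 3, young sham 1 or young sham 2 the call was lost (log2FC 1.83 to 2.80, adjusted p up to 0.0728). In aged mice it had 1.56, 0.607 and 4.19 CPM in sham and 7.30, 8.36 and 6.19 CPM after ICH, a log2FC of 1.77 ± 0.59 that did not pass (adjusted p = 0.0694). Aged ICH samples nevertheless all lay above aged sham samples. The aged difference passed without aged sham 3 (log2FC 2.74) or without young ICH 3, with DESeq2 (adjusted p = 0.0483) and with no filter on low counts (adjusted p = 0.0255).

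Neutrophil markers moved in the same direction as the ELR genes. Of 13 markers, 9 were tested, and 7 were higher in young ICH than in young sham and 5 in aged ICH than in aged sham. Over all genes tested, 9.89% and 7.00% were higher. Retnlg had 1 count in young sham in all and 46 in young ICH. Such genes pass the filter on low counts by libraries where they are high, so the number called is partly set by the filter. The summed level of the 13 markers was 11.2 to 13.6 CPM in young sham, 21.4 to 37.9 in young ICH, 16.1 to 27.6 in aged sham and 39.6 to 55.8 in aged ICH, with the calprotectin subunits S100a8 and S100a9 among the genes that rose at both ages. Csf3r made up most of the sham sums, at a mean of 9.60 CPM in young sham and 12.77 in aged sham, against 16.33 in young ICH and 19.69 in aged ICH. Aged sham 3, the highest sham for Cxcl1, Cxcl2 and Cxcl5, also had the highest neutrophil sum of the shams (27.6 CPM). Ly6g, a defining neutrophil surface marker, had 3 or 4 counts in each group in all and was not tested. What neutrophil RNA contributed to the ELR gene values was not tested.

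Cxcl10, the interferon-induced ligand IP-10, had 8.93, 2.54 and 11.3 CPM in young sham and 12.4, 18.3 and 25.3 CPM in young ICH. It had 11.4, 1.75 and 9.52 CPM in aged sham and 50.4, 20.8 and 33.3 CPM in aged ICH. Sham and ICH samples did not overlap at either age, and aged ICH 1 was the highest library. The log2FC was 2.20 ± 0.62 in aged mice (adjusted p = 0.0379) and 1.30 ± 0.61 in young mice (adjusted p = 0.16). The aged call was lost without 5 of the 6 aged libraries, all but aged ICH 2 (log2FC 1.74 to 2.62, adjusted p up to 0.145), and in the fit of the 6 aged samples alone (adjusted p = 0.0512). The difference between the 2 responses, tested as an interaction, was 0.90 ± 0.85 (adjusted p = 1).

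Cxcl9, the neighbouring interferon-gamma-induced ligand, was scarcely detected, with 3 to 18 counts in each library. It had 0.304, 0.127 and 0.594 CPM in young sham, 0.348, 0.0999 and 0.473 in young ICH, 0.166, 0.202 and 0.1497 in aged sham and 0.418, 0.576 and 0.283 in aged ICH. Young samples overlapped, and aged ICH samples lay above aged sham samples without passing the test (log2FC 1.28 ± 0.61, adjusted p = 0.187). In young mice the log2FC was -0.13 ± 0.57 (adjusted p = 0.9).

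Cxcl12, the ligand of Cxcr4 also called SDF-1, was the only member called lower in any comparison. It had 58.4, 81.2 and 77.5 CPM in aged sham and 47.98, 33.2 and 38.6 CPM in aged ICH, a log2FC of -0.86 ± 0.16 (adjusted p = 0.00877). In young mice it had 56.6, 52.0 and 42.9 CPM in sham and 38.6, 46.9 and 37.4 CPM after ICH, which overlapped (log2FC -0.30 ± 0.16, adjusted p = 0.216). The aged call held without each of the 12 samples in turn (log2FC -1.012 to -0.74, adjusted p up to 0.0365). The interaction was -0.56 ± 0.23, with an unadjusted p of 0.0318 and an adjusted p of 1. Endothelial markers, of a cell type that makes Cxcl12, were higher for 3 of 7 and lower for 0 of 7 in aged ICH than in aged sham (summed level 311 to 359 CPM in aged sham and 364 to 440 in aged ICH), and the 8 striatal neuron markers had a median log2FC of -1.11, with none called (1064 to 1968 CPM and 248.8 to 1497). In that comparison 7.00% of all genes tested were higher and 6.15% lower. The part of either cell type in the Cxcl12 values was not tested.

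Cxcl14 stayed within a narrow band, from 53.2 to 64.5 CPM in young sham, 51.5 to 78.4 in young ICH, 54.2 to 71.0 in aged sham and 47.0 to 67.6 in aged ICH. The groups overlapped in every comparison, and its log2FC was 0.18 ± 0.17 in young ICH vs. young sham (adjusted p = 0.507) and -0.02 ± 0.17 in aged ICH vs. aged sham (adjusted p = 0.948).

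Cxcl16, which attracts Cxcr6-bearing cells and can stay on the membrane as an adhesion molecule, had 3.29, 3.49 and 3.99 CPM in young sham and 5.25, 4.43 and 9.08 CPM in young ICH (log2FC 0.80 ± 0.29, adjusted p = 0.0732). It had 5.33, 2.93 and 6.11 CPM in aged sham and 8.56, 7.21 and 7.54 CPM in aged ICH (log2FC 0.70 ± 0.28, adjusted p = 0.13). ICH samples lay above sham samples at both ages without passing the test, and DESeq2 called the young difference (adjusted p = 0.0322). Young ICH 3, the highest library for Cxcl16 and Cxcl5 in young mice, was also the library with 4054 CPM of choroid plexus markers, whose part in these values was not tested.

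**Figure D3:**
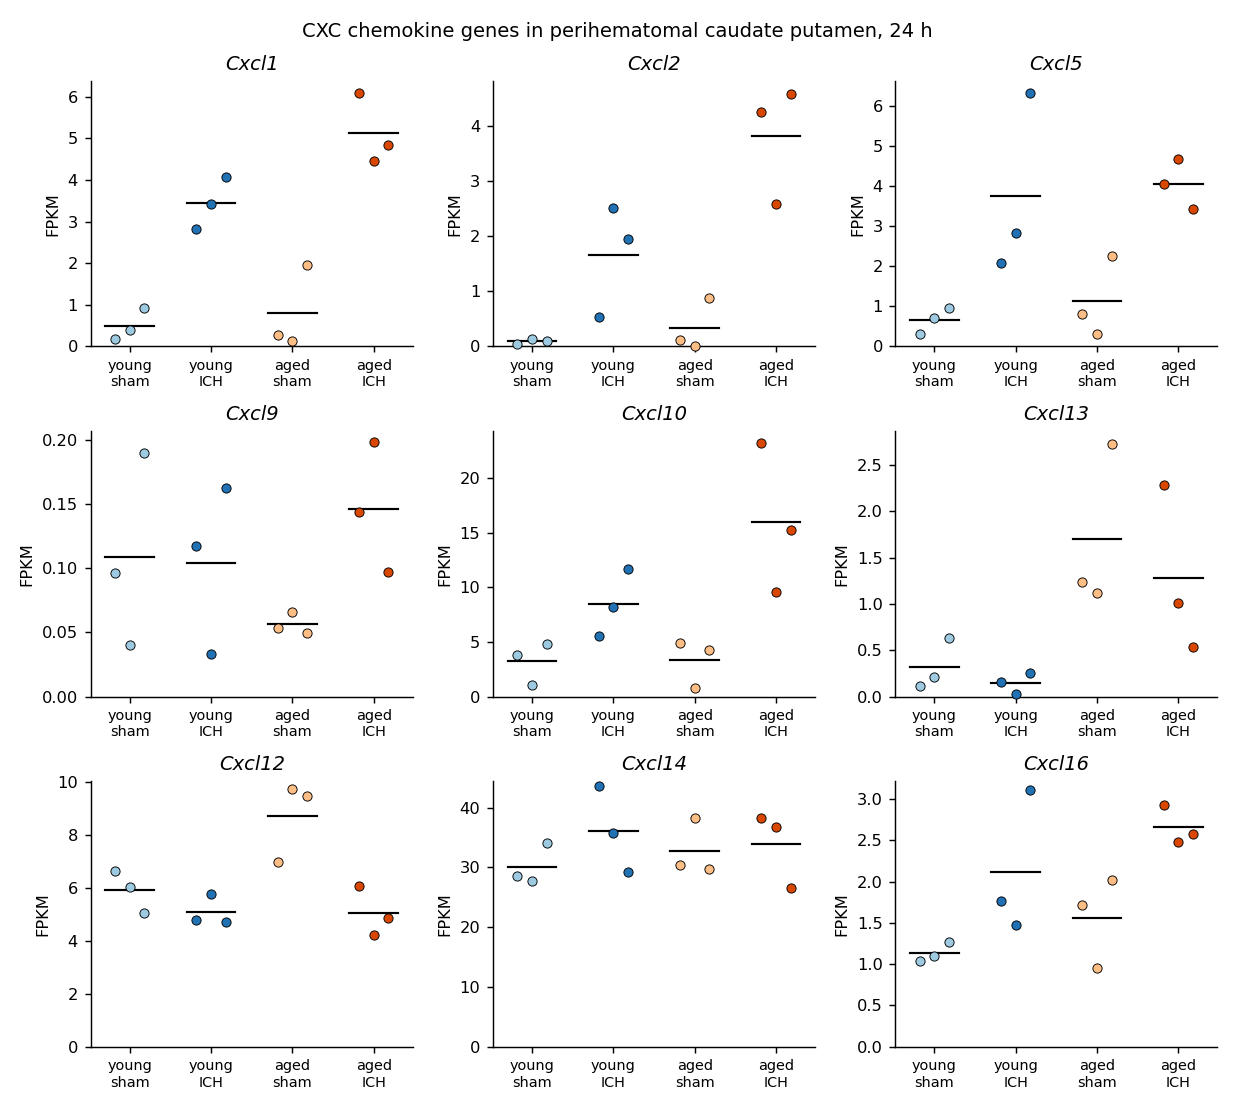
FPKM of each CXC chemokine gene (y axes, each from 0) by group; points are samples, drawn in replicate order from left to right, and black lines are group means (n = 3). Cxcl1 reached 2.83 to 6.08 FPKM after ICH against 0.141 to 1.96 in sham samples, and Cxcl13 was higher in every aged sample than in the young samples given the same surgery.

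**Figure D4:**
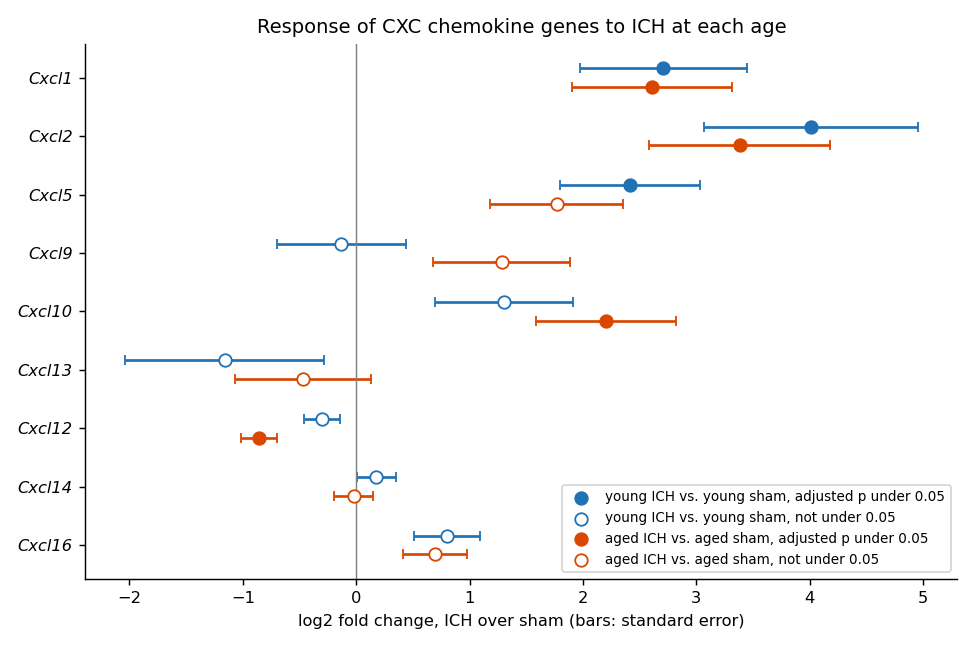
log2FC of ICH over sham for each CXC chemokine gene (x axis), in young mice (blue) and aged mice (orange), with standard errors as bars; filled points had an adjusted p under 0.05. The ELR genes lie at 1.77 to 4.01, and Cxcl12 in aged mice at -0.86 is the only filled point below 0.

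Between the ages Cxcl13 had the largest log2FC of the 9 members, in sham and in ICH tissue, and neither passed the threshold. Cxcl13, the B cell attractant, had 0.138, 0.254 and 0.759 CPM in young sham and 1.46, 1.32 and 3.14 CPM in aged sham, a log2FC of 2.39 ± 0.68 (unadjusted p = 0.00464, adjusted p = 0.223). After ICH it had 0.174, 0.0333 and 0.284 CPM in young and 2.54, 1.12 and 0.597 CPM in aged mice, a log2FC of 3.08 ± 0.78 (unadjusted p = 0.00197, adjusted p = 0.228). All aged samples lay above the young samples of the same surgery in both comparisons. Within an age, sham and ICH samples overlapped (log2FC -1.16 ± 0.88, adjusted p = 0.389 in young, and -0.47 ± 0.60, adjusted p = 0.649 in aged mice). Young counts were low, from 1 to 23 in a library. Of 6 B cell markers 2 were tested and 1, Cd22, was higher in aged sham than in young sham (log2FC 2.39 ± 0.35, adjusted p = 0.035), with a summed level of 0.719 to 1.02 CPM in young sham and 1.28 to 1.62 in aged sham. Ms4a1, which encodes CD20, had 2 to 5 counts in each group in all, and the part of B cells in the Cxcl13 values was not tested.

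By edgeR, 0 of 9 members were called between aged sham and young sham, where 0.102% of all genes tested were called. Unadjusted p was under 0.05 for 2 members, Cxcl12 (log2FC 0.52 ± 0.16, adjusted p = 0.247) and Cxcl13, and DESeq2 called 1, Cxcl13 (adjusted p = 0.05 after rounding). Likewise 0 of 9 were called between aged ICH and young ICH, against 0.0558% of all genes, with 1 member, Cxcl13, under an unadjusted 0.05 and also called by DESeq2 (adjusted p = 0.00707). Cxcl13 was also the 1 member past the study's criterion in these comparisons, where 2.82% and 2.21% of all genes were higher by it. For Cxcl1 the log2FC between aged ICH and young ICH was 0.55 ± 0.65 (adjusted p = 0.831). Its aged ICH samples (8.02 to 11.01 CPM) nevertheless all lay above its young ICH samples (5.22 to 7.37 CPM). The 4 comparisons share groups, so their values are not independent of each other.

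Whether age altered the response to ICH was tested as the difference between the aged and the young log2FC. It was called for 0 of 9 members by edgeR and for 0 by DESeq2, with 0% of all genes called by edgeR (606 genes at an unadjusted p under 0.05) and 1 gene by DESeq2. Only Cxcl12 had an unadjusted p under 0.05. The difference was -0.10 ± 0.99 for Cxcl1, -0.63 ± 1.25 for Cxcl2, -0.65 ± 0.84 for Cxcl5 and 1.41 ± 0.83 for Cxcl9, and standard errors of this size leave room for differences either way. For Cxcl1, Cxcl2 and Cxcl5 it became 1.81, 1.62 and 0.33 without aged sham 3, and the aged sham vs. young sham log2FC turned from 0.65, 1.80 and 0.75 to -1.26, -0.44 and -0.23.

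Of the 6 other CXC ligands, Cxcl3, Pf4 and Ppbp passed the filter on low counts, Cxcl3 and Ppbp by their counts in ICH libraries, so that the number called is partly set by the filter. Cxcl3, the ELR gene whose promoter is shown above, had 0, 2 and 0 counts in young sham and 33, 91 and 102 in young ICH, a ratio of 115 between the summed counts, scaled to library size (exact 95% interval 31.5 to 956, counting error only; adjusted p = 0.00801). It had 3, 0 and 46 counts in aged sham, again highest in aged sham 3, and 190, 114 and 241 in aged ICH (log2FC 3.44 ± 0.85, adjusted p = 0.0233, lost without aged ICH 1, aged ICH 3, aged sham 1 or aged sham 2). DESeq2 did not call the aged difference (adjusted p = 0.0557), and its log2FC was 6.69 without aged sham 3 and 2.89 to 6.69 over all samples left out. Platelet factor 4 (Pf4), stored by platelets and also made by some macrophages, rose by a log2FC of 1.79 ± 0.24 in young (adjusted p = 0.00166) and 1.57 ± 0.23 in aged mice (adjusted p = 0.00441), a call kept without each sample in turn. Ppbp, the platelet basic protein gene, had 0, 1 and 1 counts in young sham and 8, 15 and 9 in young ICH (ratio 16.3, exact 95% interval 4.16 to 140, adjusted p = 0.0206), and 0, 3 and 10 in aged sham and 12, 13 and 19 in aged ICH (log2FC 1.70 ± 0.69, adjusted p = 0.126, and 3.09 with adjusted p = 0.0396 without aged sham 3). Its young call was lost without any 1 of the young sham samples. Cxcl11, Cxcl15 and Cxcl17 had 0 to 9 counts in each library and were not tested.

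The receptor side was led by Cxcr2, the receptor of the ELR ligands. Of 8 receptors 6 were tested, and 4 were higher in young ICH and 2 in aged ICH than in the matched sham, with 0 lower. Over all genes tested, 9.89% and 7.00% were higher. Cxcr3 passed the filter on low counts by its young ICH libraries and Cxcr6 by its ICH libraries, so the number called is partly set by the filter. Cxcr3 had at most 0.330 CPM in any sham library and up to 1.89 in young ICH. Cxcr6 had at most 0.297 CPM in any sham library and up to 2.21 after ICH. Cxcr2 had 0.166, 0.539 and 0.429 CPM in young sham and 2.002, 4.33 and 3.25 CPM in young ICH, a log2FC of 3.08 ± 0.55 (adjusted p = 0.00406) that was kept without each sample. In aged mice it had 0.430, 0.202 and 1.26 CPM in sham and 3.90, 2.98 and 3.55 CPM after ICH, a log2FC of 2.44 ± 0.51 (adjusted p = 0.013) that was lost without aged ICH 1 (adjusted p = 0.0538) or aged sham 1 (0.0561), and was 3.44 without aged sham 3. Aged sham 3 was once more the highest sham, and ICH and sham samples did not overlap. Cxcr1, the other neutrophil receptor, had 0 to 15 counts in each library and was not tested.

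Cxcr4, the signalling receptor of Cxcl12, was higher after ICH at both ages, by a log2FC of 1.16 ± 0.33 in young (adjusted p = 0.0312) and 1.17 ± 0.32 in aged mice (adjusted p = 0.0356). It went from 1.16, 1.68 and 1.98 CPM in young sham to 3.51, 2.90 and 4.32 CPM in young ICH, and from 2.75, 1.012 and 2.49 CPM in aged sham to 5.30, 3.76 and 5.03 CPM in aged ICH, with no overlap. The young call was lost without any 1 of 4 young samples (young ICH 1 and 3, young sham 1 and 2), and the aged call without aged ICH 1 or 3, aged sham 2 or 3, or young sham 2, or with only the 6 aged samples fitted (adjusted p = 0.0629). The scavenging receptors Ackr3 (5.69 to 10.3 CPM over all samples) and Ackr1 (36.2 to 55.7 CPM) were not called in any comparison, and the Ackr1 locus overlaps Cadm3 on the same strand, so its counts are uncertain.

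In young ICH the calls of Cxcr3 and Cxcr6, receptors of T and NK cells for Cxcl9 and Cxcl10 and for Cxcl16, rested on 1 library. Cxcr3 had 65, 11 and 19 counts in young ICH 1, 2 and 3 against 10, 6 and 10 in young sham (log2FC 1.84 ± 0.54, adjusted p = 0.0342), and Cxcr6 had 76, 7 and 18 against 7, 4 and 9 (log2FC 2.29 ± 0.73, adjusted p = 0.0477). Without young ICH 1 the log2FC fell to 0.86 (adjusted p = 0.151) and 0.96 (adjusted p = 0.285). The Cxcr6 call was also lost without 10 of the other 11 samples, and the Cxcr3 call without any 1 of the young sham samples or with only the 6 young samples fitted (adjusted p = 0.103). Of 10 T and NK cell markers, 7 had their highest count of the young ICH libraries in young ICH 1 as well, among them Cd8a (113, 14 and 9 counts), whereas Cd4, Klrb1c and Ncr1 were highest in young ICH 3. Cd4, which microglia and macrophages can also express, dominated the summed level of this list (9.59 to 29.3 CPM in young ICH and 20.9 to 38.3 CPM in young sham), and had 384, 169 and 566 counts in young ICH against 1258, 604 and 549 in young sham (log2FC -1.06 ± 0.56, adjusted p = 0.21). Of the 7 markers that were tested, Cd3e and Nkg7 were higher in young ICH and 0 were lower, where 9.89% of all genes tested were higher and 9.23% lower. The part of T and NK cells in the receptor values was not tested. In aged mice Cxcr3 had 1 or 2 counts per sham library and 6 or 7 per ICH library (log2FC 2.09 ± 0.87, adjusted p = 0.138, and 0.0272 without young ICH 1). For Cxcr3 every aged library lay below the young libraries of the same surgery, without passing the test. Its log2FC was -2.52 ± 0.83 in aged sham vs. young sham (adjusted p = 0.271) and -2.27 ± 0.56 in aged ICH vs. young ICH (adjusted p = 0.22). Both were past the study's criterion, in a gene that passed the filter on low counts by its young ICH libraries. Cxcr5, the Cxcl13 receptor, had 0 to 5 counts in each library and was not tested.

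**Figure D5:**
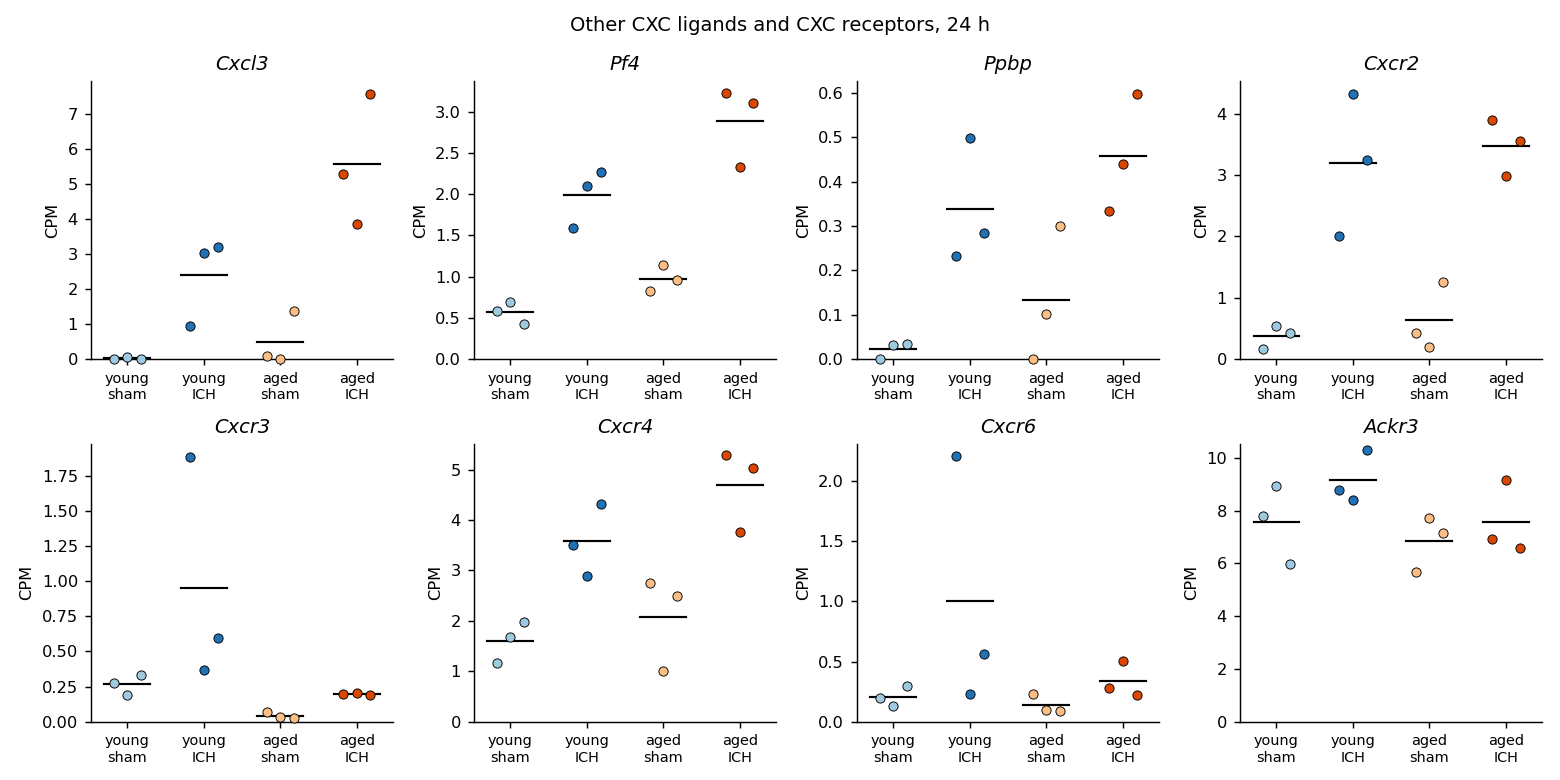
CPM of 3 further CXC ligands and 5 CXC receptors (y axes, each from 0) by group; points are samples in replicate order and black lines are group means (n = 3). Cxcr2 and Pf4 separate ICH from sham at both ages, whereas the Cxcr3 and Cxcr6 means of young ICH rest on 1 sample at 1.89 and 2.21 CPM.

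Proteases that process CXC chemokines moved in part. Of 6 tested, 2 were higher in young ICH than in young sham, the neutrophil collagenase Mmp8 (log2FC 4.13 ± 0.62, adjusted p = 0.00216) and the gelatinase Mmp9 (1.54 ± 0.23, adjusted p = 0.00199), and 1 in aged ICH than in aged sham, Mmp9 (1.03 ± 0.22, adjusted p = 0.0133). Over all genes tested, 9.89% and 7.00% were higher. Adam10 and Adam17, the sheddases of Cxcl16, had log2FC of -0.06 ± 0.07 (adjusted p = 0.576) and 0.25 ± 0.10 (adjusted p = 0.114) in young mice and -0.02 ± 0.07 (adjusted p = 0.91) and 0.28 ± 0.10 (adjusted p = 0.0948) in aged mice. The other 2, Mmp2 and Dpp4, were not called in either.

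Part of the genes upstream of the ELR ligands were higher after ICH. Of 17 genes of the NF-kB, interleukin 1 and tumor necrosis factor pathways, 10 were higher in young ICH and 9 in aged ICH than in the matched sham, and 0 were lower. Among all genes tested, 9.89% and 7.00% were higher. In young mice the called genes with the largest log2FC were the cytokines Csf3 (3.81 ± 1.14, adjusted p = 0.0376), which drives neutrophil production, Osm (2.65 ± 0.73, adjusted p = 0.0274) and Il6 (2.50 ± 0.49, adjusted p = 0.00599). In aged mice they were Il6 (2.97 ± 0.44, adjusted p = 0.00463), Osm (2.19 ± 0.60, adjusted p = 0.0353) and the tumor necrosis factor receptor gene Tnfrsf1a (1.44 ± 0.23, adjusted p = 0.00536). The ligand genes Il1b, Tnf and Il1a did not pass at either age, with log2FC of 2.04 ± 0.70 (adjusted p = 0.0604), 1.10 ± 0.59 (0.217) and -0.53 ± 0.28 (0.209) after ICH at the young age. The aged values were 1.39 ± 0.63 (adjusted p = 0.169), 0.46 ± 0.51 (0.601) and 0.00 ± 0.28 (0.995). The call of Csf3 in young mice and of Osm at both ages was lost without several single samples.

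Of 14 genes of interferon signalling, 12 were tested, and 5 were higher in young ICH and 9 in aged ICH than in the matched sham, with 0 lower. Over all genes tested, 9.89% and 7.00% were higher. In young mice the leading genes were Irf5 (0.89 ± 0.12, adjusted p = 0.00167), Irf3 (0.59 ± 0.09, adjusted p = 0.0021) and the interferon gamma receptor chain Ifngr1 (0.55 ± 0.09, adjusted p = 0.00347). In aged mice Stat2 (1.10 ± 0.19, adjusted p = 0.00661) and Irf9 (0.97 ± 0.22, adjusted p = 0.0153) were among them, and the Irf9 call was lost without aged ICH 1. Stat2 and Irf9 had log2FC of 0.57 and 0.66 in young ICH vs. young sham. These were not called by edgeR but were called by DESeq2 (adjusted p = 0.0208 and 0.017). No interaction of this list was called, so the 2 counts do not show that the ages differ. Ifng and Ifnb1 themselves had 0 to 2 counts in each group in all and were not tested.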

How the data were processed

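RNA-seq was performed on 12 pooled tissue samples. Per the study's methods, reads were aligned with HISAT2 to GRCm38.p6 and counted per gene with featureCounts. The authors deposited raw counts per gene, used for all tests, and FPKM per gene, used here only to compare levels between genes. Whether counting used strand and how reads mapping to several genes were treated are points not stated in the material used here, so reads shared by related genes such as Cxcl1, Cxcl2 and Cxcl3 could be split or dropped.

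Genes were filtered with filterByExpr (minimum count 10) and counts normalised by TMM, and edgeR 4.0.16 (R 4.3.3) quasi-likelihood tests were run on all 12 samples in 1 model of 4 groups, with Benjamini-Hochberg adjustment over all genes tested. A call is an adjusted p under 0.05. CPM are TMM-scaled. The standard error is the log2FC divided by the square root of F. Alternatives were DESeq2 1.42.0, its size factors in edgeR, no filter, only the 6 samples compared, the study's criterion (FC above 1.5 or under 0.67 with unadjusted p under 0.05), a replicate block and leaving out each sample. The tests were checked on simulated data. The members, gene lists and tests were chosen with earlier results of these data known. All members, receptors and other ligands are named. Of the longer upstream lists the 3 called genes with the largest log2FC per ICH comparison are named, apart from 1 that is not reported here, and marker genes, proteases and overlapping genes were named after their values were seen. Promoters came from RefSeq (GRCm38.p6), searched on both strands. No pair of replicates differed by as little as sampling noise.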

Additional observations from a re-analysis of the deposited data

How the results depend on the processing

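With 3 pooled samples a group, which members passed the threshold depended on single libraries, and the causes were not tested. Leaving out each sample in turn gave 0 to 4 members called higher in young ICH vs. young sham and 0 to 4 in aged ICH vs. aged sham, against 3 in each with all samples. The count in aged ICH vs. aged sham was 1 with only the 6 samples compared and 5 by the study's criterion. It was 1 rather than 0 in aged sham vs. young sham and in aged ICH vs. young ICH, by DESeq2 and by the study's criterion alike, Cxcl13 each time. The 1 member called lower, Cxcl12, was kept under every alternative.

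Directions that turned were those of differences below the threshold. With only the 6 samples compared, the Cxcl10 log2FC in aged sham vs. young sham was 0.0026. As each sample was left out, the log2FC in aged sham vs. young sham ran from -1.26 to 1.45 for Cxcl1, -0.44 to 2.35 for Cxcl2, -0.23 to 1.18 for Cxcl5, -0.42 to 0.46 for Cxcl10, -0.046 to 0.17 for Cxcl14 and -0.23 to 1.19 for Cxcr2. In aged ICH vs. aged sham it ran from -1.21 to 0.042 for Cxcl13, -0.12 to 0.12 for Cxcl14, -0.0069 to 0.20 for Ackr1 and -0.018 to 0.23 for Ackr3, and in young ICH vs. young sham from -0.56 to 0.49 for Cxcl9. In aged ICH vs. young ICH it ran from -0.19 to 0.69 for Cxcl5, -0.19 to 0.079 for Cxcl12, -0.26 to 0.038 for Cxcl14, -0.12 to 0.41 for Cxcr2 and -0.11 to 0.046 for Ackr1. The interaction ran from -0.90 to 1.81 for Cxcl1, -1.17 to 1.62 for Cxcl2, -1.08 to 0.33 for Cxcl5, -0.25 to 1.29 for Cxcl13 and -0.36 to 0.26 for Cxcl16.

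Samples with the same replicate number did not steadily deviate together (r from -0.45 to 0.24 over 18 pairs, 5 of them over 0.1). With 3 samples a group this check cannot exclude that the numbers pair them. With a replicate block in the model, the interaction was 0.18 for Cxcl1 and 0.0037 for Cxcl16. Cxcl5 in aged ICH vs. aged sham passed (log2FC 2.07, adjusted p = 0.0285), while Cxcr6 (adjusted p = 0.076) and Csf3 (0.0533) in young ICH vs. young sham did not. The calls over all genes went from 4110 to 3502 in young and from 2828 to 2464 in aged mice.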
